A study of Mus musculus with 12 samples.

Results

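Hearts of Myh6-tg and Myh6-ctl mice at postnatal day 90, 3 of each, were compared across all genes of a table of read counts. They made up 6 of the 12 hearts of the series. By the labels and the study's methods both groups carried the same alleles. One was a cassette at the Rosa26 site in which a stop flanked by loxP precedes human NOTCH2NLC with 98 GGC repeats, and the other a Cre recombinase made under the Myh6 promoter, which is active in cardiomyocytes, and switched on by tamoxifen. Myh6-tg mice received tamoxifen, 75 mg per kg in corn oil every other day for 3 injections from day 60, and Myh6-ctl mice received the oil alone. By these sources tamoxifen, the activity of Cre in cardiomyocytes and the release of the repeat transgene differed together between the groups. They cannot be told apart. Counts of Esr1, which can hold reads of such a Cre, also differed between the groups, as given below. The other 6 hearts, EIIa-ctl and EIIa-tg at day 30, were used where the models were compared and where libraries were checked. In that model Cre acts in all tissues, and the controls carry the conditional transgene without Cre.

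GGC expansion in NOTCH2NLC causes neuronal intranuclear inclusion disease, in which inclusions that stain for p62 form in the nuclei of many organs, the heart among them. The adult heart takes most of its ATP from the oxidation of fatty acids in mitochondria, and under load or injury it takes up again a part of its fetal program, such as the natriuretic peptide genes. Fibroblasts of the injured heart lay down collagen, which lysyl oxidases crosslink, together with adhesive proteins such as periostin.

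Differential expression was tested with edgeR's quasi-likelihood method, and a DEG had to pass an adjusted p (Benjamini-Hochberg) of 0.01 and differ at least 2-fold. "Rose" and "fell" are used only of DEGs. Levels are CPM, counts per 1000000 after TMM scaling of the 6 hearts, in the order of replicates 1, 2 and 3. SE is the standard error of the log2 fold change, which is Myh6-tg over Myh6-ctl unless another comparison is named. The transcript of the transgene was not analysed here. The labels call the hearts biological replicates, and by the study's text the mice given oil were littermates of those given tamoxifen, but no source used here ties replicate numbers to litters. A total of 38343106 to 50940490 counts were made per Myh6 heart, so that 3 counts in 1 heart stood for 0.0589 to 0.0782 CPM before TMM scaling.

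Before the comparison, the libraries were checked against their labels. Esr1, the estrogen receptor gene, was examined because a part of it is used in Cre proteins that respond to tamoxifen, so that reads of such a transgene can be counted on Esr1. It had 103037, 53433 and 54306 counts in the Myh6-ctl hearts and 61, 116 and 53 in the Myh6-tg hearts. The EIIa hearts, with another Cre in EIIa-tg and none in EIIa-ctl, had between 15 and 54. The Myh6-tg libraries were thus near the EIIa libraries in Esr1 and far below the libraries that the labels give the same genotype (log2 fold change -9.94, SE 0.61, adjusted p = 0.000845). The groups are named here by their labels. What produced this difference was not tested. Myh6 itself, whose promoter drives this Cre, had 10926, 7495 and 9957 CPM in Myh6-ctl and 3008, 918 and 764 CPM in Myh6-tg hearts. Its levels did not overlap between groups and were lowest in Myh6-tg replicates 2 and 3, but it missed the threshold (log2 fold change -2.60, SE 0.57, adjusted p = 0.0208, and 0.00657 with the replicate number as a block). Besides Esr1, 1 further locus had at least 0.5 CPM in every Myh6-ctl heart and at least 5 times less in the other 9 hearts. It was unannotated, with 387 to 892 counts against at most 7.

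A second check, chosen after the values were seen, concerned kidney. Kap, a gene of the kidney tubule, had between 442 and 494 counts in 5 libraries, namely the 3 of Myh6-ctl, EIIa-ctl replicate 1 and EIIa-tg replicate 2, and at most 2 in the other 7. The kidney genes Kap, Umod, S100g, Klk1, Slc34a1 and Acsm2 together had 585 to 640 counts in these 5 libraries, at most 0.00133% of a library's counts, and at most 2 elsewhere. These 5 were also the deepest libraries, with at least 46813231 counts against at most 43058194 in the others. In all, 16 loci had at least 5 counts in each of the 5 and at most 2 in each of the 7, against 0 loci with the opposite pattern. Of these 16 loci 4 were DEGs, lower in Myh6-tg hearts, Kap, Umod and Klk1 among them, of which Umod and Klk1 were not called with the replicate block. All Myh6-ctl libraries thus lay in this set and all Myh6-tg libraries outside it, so that within the Myh6 hearts the set and the group cannot be told apart. The EIIa hearts held 2 libraries of the set and 4 outside it. A fit of all 12 hearts with the set as a term called 1 of 15929 genes for the set itself (311 at an unadjusted p under 0.05). As set and group coincide in the Myh6 hearts, the term rested on the EIIa hearts, with 1 library of the set in each of their groups. The low count for the set thus cannot show that its effect was small. In that fit 607 of the 608 DEGs kept their direction, 596 had an unadjusted p under 0.05 and 128 were called, against 598 without the term. Kap no longer was called (log2 fold change 2.55, adjusted p = 0.339).

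Replicate 1 of each group differed from replicates 2 and 3 in more than its label. Summed counts of Y-linked genes (Ddx3y, Eif2s3y, Kdm5d and Uty) were 5245 in Myh6-ctl replicate 1, 7307 in Myh6-tg replicate 1 and at most 2 in the other Myh6 hearts, and 4733 and 4224 in replicate 1 of EIIa-ctl and EIIa-tg and 0 in the other EIIa hearts. Each group thus held 1 male library. The core clock gene Arntl had 30.1, 1.64 and 1.36 CPM in Myh6-ctl and 15.9, 29.6 and 23.7 CPM in Myh6-tg hearts. Its counterpart Dbp, which is transcribed in the opposite phase, had 5.41, 157 and 110.2 CPM in Myh6-ctl and 16.0, 31.1 and 32.9 CPM in Myh6-tg hearts. Myh6-ctl replicate 1 stood against replicates 2 and 3 in both. In replicates 2 and 3 Arntl was lower and Dbp higher in Myh6-ctl than in Myh6-tg hearts, while in replicate 1 both went the other way. The clock genes thus also differed between the groups in replicates 2 and 3. The part of clock phase in the results was not tested. Myh6-tg replicate 1 lay 133 and 135 from replicates 2 and 3 in Euclidean distance over log2 CPM of all genes tested. Replicates 2 and 3 were 71.9 apart and the Myh6-ctl hearts 99.0 to 116 apart. Deviations from the group mean correlated between same-numbered hearts of the groups (r across genes 0.279, 0.179 and 0.184, all other pairs -0.233 to 0.0446). Counts with the replicate number as a block are therefore given where they change a result. The extraction protocol in the labels speaks of brain. The neuronal genes Snap25, Syt1 and Rbfox3 were near 0, with at most 15 counts in any Myh6 heart, and the astrocyte gene Gfap had at most 0.69 CPM. Slc17a7, a glutamate transporter gene of neurons, went the other way, with up to 1737 counts in a Myh6 heart. The cardiomyocyte genes Tnnt2 and Myh6 reached 10023 and 10926 CPM. The atrial myosin light chains were low, at most 4.44 CPM of Myl7 and 30.6 CPM of Myl4, with both highest in Myh6-tg replicate 3. The whole list of 8 atrial markers tested, which holds Nppa, summed to 698 to 2561 CPM in Myh6-ctl and 5362 to 7754 CPM in Myh6-tg hearts, with no overlap, and 5 of its genes were higher and 2 lower at an unadjusted p under 0.05. Its part in the results was not tested.

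Genes of the extracellular matrix, such as Lox, Postn and Col1a1, were among those that rose in Myh6-tg hearts. Genes of fatty acid oxidation, of ion channels and of the sarcomere, such as Hadhb, Scn4b and Myl3, were among those that fell. Of 15298 genes tested, 608 were DEGs (3.97%), 294 higher (1.92%) and 314 lower (2.05%), and 5210 had an unadjusted p under 0.05. The groups did not overlap in any of the 608, as in 40.3% of all genes tested, 20.6% with Myh6-tg hearts higher and 19.7% with them lower. Where a lack of overlap is stated for a DEG below, it holds for every DEG and is no separate support. At an adjusted p under 0.05 with the same fold, 2005 genes (13.1%) were called, 866 higher (5.66%) and 1139 lower (7.45%). With the replicate block 969 genes were called, 418 higher and 551 lower, and 547 of the 608 were among them. The DEGs had a median log2 fold change of 1.90 among those higher and -1.88 among those lower, while that of all genes was 0.03. Scaling by library totals in place of TMM moved the median of all genes to 0.43 and the DEGs to 787 higher and 209 lower, so that changes below are relative to the bulk of genes. Genes of the mitochondrial genome took between 31.8% and 38.3% of the counts of a Myh6-ctl library and between 15.5% and 18.6% of those of a Myh6-tg library. Without them 614 genes were called. When each heart was left out in turn, the number of DEGs was 1690 without Myh6-tg replicate 1. It was 26, 77 and 57 without Myh6-ctl replicates 1, 2 and 3 and 69 and 59 without Myh6-tg replicates 2 and 3. All 608 kept their direction in the 6 leave-outs, which follows from the lack of overlap between groups and is no separate support. Of the 608, 602 were called without Myh6-tg replicate 1 and 21 in all 6. Beside most counts of a gene list below stands the range over these leave-outs, and the count with the block where that moved it by over 1.5 times. Leaving out any heart but Myh6-tg replicate 1 removes most calls, and the low end of each range comes from those 5. Each list count is to be read beside the shares of all 15298 genes, 1.92% higher and 2.05% lower. With the block these were 418 and 551 genes. List counts at an unadjusted p under 0.05 stand beside 5210 of all genes tested. DESeq2 called 885 of all genes tested higher and 1221 lower.

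**Figure D1:**
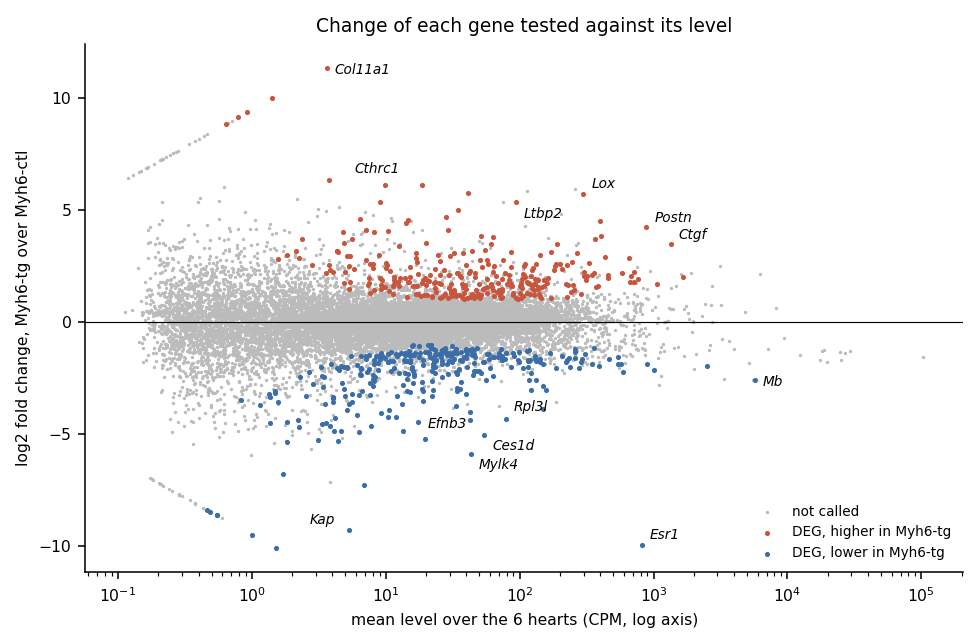
Each point is 1 of the 15298 genes tested, with its mean level over the 6 hearts in CPM on a log axis and its log2 fold change, Myh6-tg over Myh6-ctl. The 294 DEGs that were higher are red and the 314 that were lower are blue. The slanted rows of points at the upper and lower left are genes with 0 or nearly 0 counts in 1 group, whose fitted change depends on the prior count.

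Among annotated DEGs whose mean level was 5 CPM or more, the steepest rises included genes of matrix. Cthrc1, a secreted glycoprotein of activated fibroblasts, had 0.165, 0.485 and 0.197 CPM in Myh6-ctl and 8.80, 25.1 and 25.0 CPM in Myh6-tg hearts (log2 fold change 6.14, SE 0.60, adjusted p = 0.00217). It was low in every control heart, and Myh6-tg replicate 1 had less than replicates 2 and 3. Lox, the lysyl oxidase that crosslinks collagen and elastin, had 9.47, 12.4 and 11.04 CPM in Myh6-ctl and 476, 616 and 672 CPM in Myh6-tg hearts and was the gene with the lowest p of all (log2 fold change 5.74, SE 0.26, adjusted p = 0.000402). Nox4 (chromosome 7, bases 87246096 to 87398710 in GRCm38), an NADPH oxidase that makes hydrogen peroxide, had 1.72, 2.05 and 2.64 CPM in Myh6-ctl and 53.9, 45.1 and 65.1 CPM in Myh6-tg hearts (log2 fold change 4.67, SE 0.26, adjusted p = 0.00061). For both, every Myh6-tg heart was far above every control, and the Myh6-tg hearts were close to each other. Pak3, a protein kinase, had 0.141, 0.916 and 0.473 CPM in Myh6-ctl and 11.8, 13.1 and 12.4 CPM in Myh6-tg hearts (log2 fold change 4.61, SE 0.57, adjusted p = 0.00391). Further steep rises were those of Serpinb9b, a serine protease inhibitor (5.38), Tent5b, a poly(A) polymerase (4.57), and the matrix genes Ltbp2, Col12a1 and Cilp, given below.

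The 10 steepest falls among such DEGs included Esr1 and Kap. Mylk4, a muscle myosin kinase, had 92.1, 69.1 and 95.5 CPM in Myh6-ctl and 3.69, 0.159 and 0.513 CPM in Myh6-tg hearts (log2 fold change -5.88, SE 0.99, adjusted p = 0.00962). Ces1d, a carboxylesterase that hydrolyses triglyceride, had 98.9, 126 and 92.3 CPM in Myh6-ctl and 0.686, 5.42 and 3.65 CPM in Myh6-tg hearts (log2 fold change -5.03, SE 0.67, adjusted p = 0.00487). In both genes the groups were far apart, and Myh6-tg replicate 1 had the most Mylk4 and the least Ces1d of its group. Efnb3 (chromosome 11, bases 69554092 to 69560205), an ephrin ligand, had 36.2, 35.3 and 28.2 CPM in Myh6-ctl and 1.44, 1.77 and 1.30 CPM in Myh6-tg hearts (log2 fold change -4.47, SE 0.23, adjusted p = 0.000459), and here all 3 Myh6-tg hearts lay together. Rpl3l, the muscle form of a protein of the large ribosomal subunit, had 193, 135 and 124 CPM in Myh6-ctl and 7.21, 10.8 and 4.69 CPM in Myh6-tg hearts (log2 fold change -4.32, SE 0.36, adjusted p = 0.00136). It was the 1 DEG among 80 tested genes of cytosolic ribosomal proteins, whose median log2 fold change was 0.04. Dhrs7c, a dehydrogenase of the sarcoplasmic reticulum, had 74.7, 97.2 and 73.3 CPM in Myh6-ctl and 6.68, 3.40 and 1.79 CPM in Myh6-tg hearts (log2 fold change -4.37, SE 0.47, adjusted p = 0.00266). Scn4b, given below, Pla2g5 (log2 fold change -4.22) and A530016L24Rik (-4.24) completed the 10. Outside these 10, and among the DEGs of lowest p, Fbp2, the muscle fructose bisphosphatase, had 20.5, 23.1 and 15.8 CPM in Myh6-ctl and 1.26, 1.47 and 1.18 CPM in Myh6-tg hearts (log2 fold change -3.92, SE 0.25, adjusted p = 0.000845). Among the DEGs with the highest levels was Mb, the myoglobin that holds oxygen in muscle, with 10255, 12069 and 7288 CPM in Myh6-ctl and 1737, 1926 and 1243 CPM in Myh6-tg hearts (log2 fold change -2.60, SE 0.34, adjusted p = 0.00488).

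Extracellular matrix genes held many of the rises, and the 5 lists of collagens, crosslinking, matricellular proteins, proteoglycans and proteases together named 35 of the 294. Called were 31.8% of collagen, 48% of crosslinking, 50% of matricellular, 9.09% of proteoglycan and 22.7% of protease genes, beside 3.97% of all genes. The lists were written with earlier results of these data known. Of collagen genes 7 rose and 0 fell among 22 tested (0 to 11 over the leave-outs), with a median log2 fold change of 1.46. Of genes for crosslinking and elastic fibres 12 rose and 0 fell among 25 tested (1 to 15 over the leave-outs, 11 rose and 1 fell with the block), with a median of 1.91. Among matricellular and adhesive matrix genes 11 rose and 0 fell among 22 tested (0 to 16 over the leave-outs), with a median of 2.60. Col1a1, a chain of the main fibrillar collagen, had 167, 156 and 191 CPM in Myh6-ctl and 482, 803 and 936 CPM in Myh6-tg hearts (log2 fold change 2.11, SE 0.29, adjusted p = 0.00515). Col5a2, of a collagen that sets fibril width, had 59.4, 39.4 and 68.4 CPM in Myh6-ctl and 307, 527 and 600.2 CPM in Myh6-tg hearts (log2 fold change 3.10, SE 0.34, adjusted p = 0.0027). In both, all Myh6-tg hearts were above all controls and replicate 1 was the lowest of them. Col3a1, the other major collagen of the heart, had 404, 365 and 534 CPM in Myh6-ctl and 464, 1636 and 1598 CPM in Myh6-tg hearts, so that Myh6-tg replicate 1 lay within the controls. It was not called (adjusted p = 0.0587), but was when that heart was left out (log2 fold change 1.89, adjusted p = 0.00202). Col12a1, which decorates collagen fibrils, had 1.62, 1.46 and 3.19 CPM in Myh6-ctl and 32.0, 88.1 and 80.4 CPM in Myh6-tg hearts (log2 fold change 4.99, SE 0.50, adjusted p = 0.00227). Col8a1, a short-chain collagen, rose with a log2 fold change of 2.61 (SE 0.38, adjusted p = 0.0064), and Col4a2, a chain of basement membrane collagen, with 1.91 (SE 0.32, adjusted p = 0.00962). Col11a1 (chromosome 3, bases 114030540 to 114220718), a minor fibrillar collagen, had 0 counts in all 3 Myh6-ctl hearts and 215, 299 and 515 in the Myh6-tg hearts. Against a floor of 3 counts per library that is at least 103-fold higher (adjusted p = 0.00224).

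Among genes for crosslinking and elastic fibres, Lox was joined by Loxl3, another lysyl oxidase, with 11.6, 6.03 and 8.89 CPM in Myh6-ctl and 53.4, 83.9 and 101 CPM in Myh6-tg hearts (log2 fold change 3.17, SE 0.33, adjusted p = 0.0024). Ltbp2, a protein of microfibrils, had 3.86, 4.31 and 5.19 CPM in Myh6-ctl and 106, 182 and 263 CPM in Myh6-tg hearts (log2 fold change 5.37, SE 0.38, adjusted p = 0.00102). Mfap2, a further one, had 4.30, 5.58 and 3.73 CPM in Myh6-ctl and 22.7, 32.4 and 33.3 CPM in Myh6-tg hearts (log2 fold change 2.70, SE 0.25, adjusted p = 0.00176). In each of these all controls lay below all Myh6-tg hearts. Of the matricellular genes, Postn, the periostin gene, had 57.1, 81.1 and 130.1 CPM in Myh6-ctl and 759, 2158 and 2121 CPM in Myh6-tg hearts (log2 fold change 4.23, SE 0.52, adjusted p = 0.00391). Ctgf, a target of TGF-beta and of mechanical load, had 68.1, 350.1 and 246 CPM in Myh6-ctl and 2353, 2334 and 2693 CPM in Myh6-tg hearts (log2 fold change 3.47, SE 0.56, adjusted p = 0.00875), with Myh6-ctl replicate 1 well under the other controls. Thbs1 and Thbs2, the thrombospondins, rose with log2 fold changes of 3.13 (SE 0.28, adjusted p = 0.00165) and 2.60 (SE 0.21, adjusted p = 0.00134). Cilp, a matrix protein of cartilage and fibrotic heart, had 33.5, 30.2 and 36.8 CPM in Myh6-ctl and 183, 978 and 1131 CPM in Myh6-tg hearts (log2 fold change 4.51, SE 0.65, adjusted p = 0.00588), and Myh6-tg replicate 1 lay between the controls and the other Myh6-tg hearts. Sparc rose by a log2 fold change of 1.72 (SE 0.29, adjusted p = 0.0094) and Cyr61 by 2.34 (SE 0.23, adjusted p = 0.00222).

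**Figure D2:**
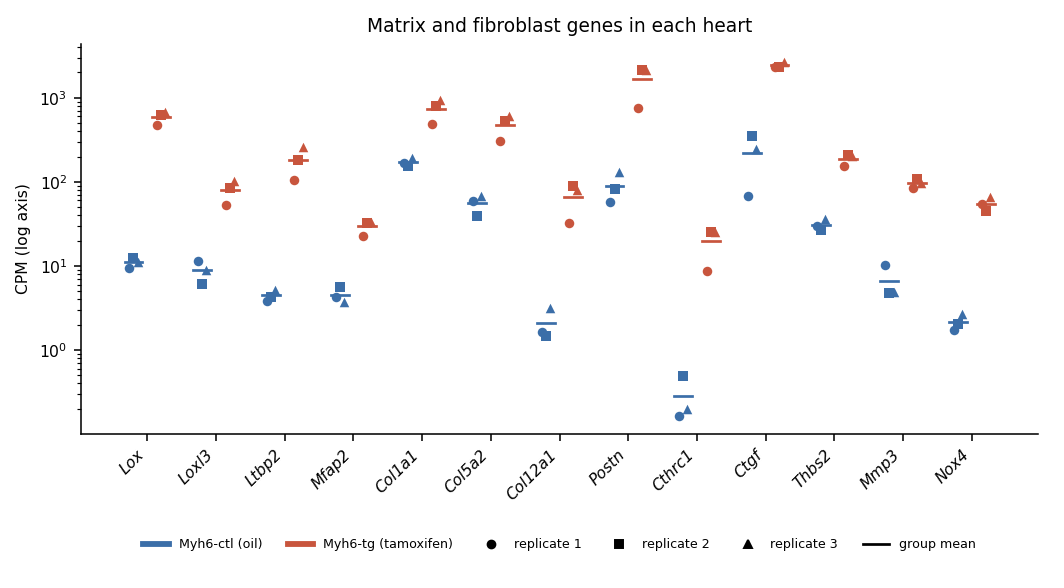
Levels of 13 genes of matrix and of activated fibroblasts in each of the 6 hearts, in CPM on a log axis. Circles, squares and triangles are replicates 1, 2 and 3, bars are group means, blue is Myh6-ctl and red Myh6-tg. In each gene all Myh6-tg hearts lie above all controls, with replicate 1 the lowest of the Myh6-tg hearts in 11 of the 13.

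Fewer genes were called among proteoglycans, proteases and growth factors. The share was 9.52% for genes of the TGF-beta family, beside 3.97% of all genes. Of proteoglycan genes 1 rose and 0 fell among 11 tested (0 to 5 over the leave-outs, 2 with the block), the riser being Bgn, the biglycan gene, with a log2 fold change of 2.02 (SE 0.28, adjusted p = 0.00545). Of protease and inhibitor genes 4 rose and 1 fell among 22 tested (0 to 8 and 0 to 1 over the leave-outs, 9 and 1 with the block). Mmp3, the stromelysin that degrades many matrix proteins, had 10.2, 4.74 and 4.95 CPM in Myh6-ctl and 84.7, 107 and 96.5 CPM in Myh6-tg hearts (log2 fold change 3.86, SE 0.34, adjusted p = 0.00158). Mmp2, Adamts2 and Timp1 rose by log2 fold changes of 2.12, 2.09 and 2.02. Mmp15, a membrane-bound protease, went the other way with 92.3, 37.2 and 51.6 CPM in Myh6-ctl and 10.9, 6.15 and 6.41 CPM in Myh6-tg hearts (log2 fold change -2.95, SE 0.40, adjusted p = 0.00502). Of genes of the TGF-beta family 2 rose and 0 fell among 21 tested (1 to 8 over the leave-outs, 7 with the block). Gdf6, a bone morphogenetic protein, had 0.705, 0.781 and 0.848 CPM in Myh6-ctl and 17.9, 10.9 and 11.8 CPM in Myh6-tg hearts (log2 fold change 4.12, SE 0.30, adjusted p = 0.00102). Fstl3, an inhibitor of activin, had 6.82, 12.6 and 10.1 CPM in Myh6-ctl and 89.5, 122 and 124 CPM in Myh6-tg hearts (log2 fold change 3.50, SE 0.28, adjusted p = 0.00123).

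Markers of activated fibroblasts moved with the matrix genes in part. Called were 43.8% of activated and 15.4% of resting fibroblast markers, beside 3.97% of all genes. Of the activated markers 7 rose and 0 fell among 16 tested (0 to 11 over the leave-outs), with a median log2 fold change of 1.5. Summed levels were 364 to 498 CPM in Myh6-ctl and 858 to 1468 CPM in Myh6-tg hearts. This list shares Ltbp2 with the elastic fibre list, and also Mfap5, a microfibril gene named for that overlap and not by a rule. Frzb, a Wnt inhibitor, had 12.01, 12.2 and 14.4 CPM in Myh6-ctl and 52.4, 102 and 109.8 CPM in Myh6-tg hearts (log2 fold change 2.77, SE 0.30, adjusted p = 0.00261). Fap, a classical gene of activated fibroblasts, had 5.95, 6.65 and 8.82 CPM in Myh6-ctl and 9.02, 4.69 and 4.38 CPM in Myh6-tg hearts. Acta2, that of myofibroblasts, had 151, 255 and 151 CPM in Myh6-ctl and 231, 151 and 126 CPM in Myh6-tg hearts. The groups overlapped in both, and neither was called. Of markers of resting fibroblasts 2 rose and 0 fell among 13 tested (0 to 3 over the leave-outs), with a median of 0.28. Their sums overlapped, at 2610.4 to 3387 and 2873 to 5625 CPM. Their defining gene Tcf21 had 16.9, 15.4 and 14.6 CPM in Myh6-ctl and 8.58, 23.9 and 24.7 CPM in Myh6-tg hearts. The 2 risers were Dpep1 (log2 fold change 2.36) and Mgp (2.204). In bulk tissue a change in the number of cells of a type and in the RNA per cell cannot be told apart, and this holds for all groups below.

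Sequences upstream of some risers held a motif of AP-1, the dimer of FOS and JUN proteins. Promoters (250 bases before to 50 after a start site, RefSeq, GRCm38.p6) were given for 11030 of 14183 tested genes matched by symbol, 202 of 282 higher and 229 of 293 lower DEGs. The AP-1 motif TGANTCA, which reads the same on both strands, stood in 30 (14.9%) of the higher and 13 (5.68%) of the lower ones, against 715 (6.48%) of all. The MEF2 motif, CTA and TAG with 4 bases between them, stood in 4.46% of the higher and 4.80% of the lower ones, against 3.74% of all. Motifs searched on both strands were rare, TNAAGGTCA of estrogen-related receptors in 3 of 202 and 2 of 229 promoters (0.888% of all) and TGATGNAAT of C/EBP with ATF in 3 and 0 (0.553% of all). Stretches around TGANTCA, in capitals, are shown in the 5′ to 3′ direction of the gene as examples among risers. Mmp3 stands for the matrix lists and Srxn1, which has 2, for the NRF2 list. Ltbp3, a binding protein of latent TGF-beta (log2 fold change 1.66), and Sphk1, a kinase that makes sphingosine 1-phosphate (4.11), were chosen after their values were seen:
Mmp3 (chr9:7445768-7445790, plus strand): agcaattaTGAGTCAgttttcgg
Ltbp3 (chr19:5740886-5740908, plus strand): agttctttTGAGTCAgacactgg
Srxn1 distal (chr2:152105414-152105436, plus strand): ggagggccTGAGTCAccacgctg
Srxn1 proximal (chr2:152105471-152105493, plus strand): attcacccTGAGTCAgcggccgg
Sphk1 (chr11:116531779-116531801, plus strand): cgtgtcgcTGAGTCAccttctcg
These matches are a description of letters and were not tested as sites.

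Among genes of cardiomyocyte stress 11.1% were called, beside 3.97% of all genes. Of the list of wall stress and fetal genes 2 rose and 0 fell among 18 tested (0 to 7 over the leave-outs, 5 with the block). All 18 log2 fold changes were above 0 and their median was 1.62, but that of Myh7 turned to -0.45 with the block and to -1.40 without Myh6-tg replicate 1. Flnc, the filamin of muscle, had 230.2, 221 and 294 CPM in Myh6-ctl and 853, 1332 and 1367 CPM in Myh6-tg hearts (log2 fold change 2.25, SE 0.27, adjusted p = 0.00372). Xirp1, a protein of the intercalated disc, had 154, 207 and 214 CPM in Myh6-ctl and 598, 618 and 538 CPM in Myh6-tg hearts (log2 fold change 1.61, SE 0.21, adjusted p = 0.00487). Nppa, the atrial natriuretic peptide gene, had 157, 1887 and 788 CPM in Myh6-ctl and 6752, 4359.9 and 5032 CPM in Myh6-tg hearts. The groups did not overlap, yet the controls spread over a wide range, and it was not called (log2 fold change 2.51, adjusted p = 0.0581). Ankrd1, a load-responsive cardiac protein, had 876, 2003 and 1112 CPM in Myh6-ctl and 4345, 4197 and 3846 CPM in Myh6-tg hearts (log2 fold change 1.63, adjusted p = 0.02). For Nppb and Myh7 the groups overlapped. Myh6-tg replicates 2 and 3 had 194 and 189.5 CPM of Nppb and 439 and 381 CPM of Myh7. Replicate 1 had 667 and 4069.5 CPM, which was above the controls in both.

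Sarcomere genes were lower in part. Of sarcomere and Z-disc genes 0 rose and 4 fell among 31 tested (0 to 1 rose and 0 to 16 fell over the leave-outs, 7 with the block), with a median of -0.61. Myl3, the essential light chain of the ventricle, had 4202, 4805 and 2955 CPM in Myh6-ctl and 1251, 1087 and 708 CPM in Myh6-tg hearts (log2 fold change -1.97, SE 0.33, adjusted p = 0.00945). Myl2, the regulatory one, which was not called, had 2871, 4135 and 2731 CPM in Myh6-ctl and 1089, 743 and 483 CPM in Myh6-tg hearts (log2 fold change -2.07, adjusted p = 0.0112, and 0.00653 with the block). Myh7b, a minor myosin heavy chain, had 19.4, 9.24 and 23.8 CPM in Myh6-ctl and 0.818, 1.13 and 1.16 CPM in Myh6-tg hearts (log2 fold change -4.07, SE 0.40, adjusted p = 0.00222). Lmod3, which helps thin filaments to form, had 75.8, 60.7 and 54.7 CPM in Myh6-ctl and 12.8, 6.46 and 5.22 CPM in Myh6-tg hearts (log2 fold change -2.97, SE 0.36, adjusted p = 0.00378). In each of these 4 genes all Myh6-tg hearts were below all controls.

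Of 32 ion channel genes 27 had a log2 fold change below 0, and 6 passed the test. Of the list of potassium and sodium channel, pacemaker and connexin genes 0 rose and 6 fell among 32 tested (0 to 1 rose and 1 to 20 fell over the leave-outs), with a median of -1.38. Scn4b, a sodium channel beta subunit, had 40.8, 15.5 and 21.5 CPM in Myh6-ctl and 1.08, 0.884 and 0.710 CPM in Myh6-tg hearts (log2 fold change -4.86, SE 0.43, adjusted p = 0.00158). Kcnv2, a modifier of voltage-gated potassium channels, had 8.49, 5.09 and 5.68 CPM in Myh6-ctl and 0.221, 0.408 and 0.197 CPM in Myh6-tg hearts (log2 fold change -4.54, SE 0.45, adjusted p = 0.00217). Kcnj2, which encodes the main inward rectifier of the ventricle, had 28.9, 31.3 and 22.2 CPM in Myh6-ctl and 6.57, 5.602 and 3.35 CPM in Myh6-tg hearts (log2 fold change -2.41, SE 0.29, adjusted p = 0.0037). Abcc9, the sulfonylurea receptor of cardiac KATP channels, had 349, 275 and 282 CPM in Myh6-ctl and 80.8, 65.2 and 74.9 CPM in Myh6-tg hearts (log2 fold change -2.04, SE 0.20, adjusted p = 0.00207). Kcnj3, an acetylcholine-gated rectifier, fell by a log2 fold change of -3.32 (SE 0.48, adjusted p = 0.00607). The groups were apart in all of these. Of calcium cycling genes 0 rose and 0 fell among 25 tested (0 and 0 to 8 over the leave-outs, 0 and 3 with the block). Of these genes 8 had an unadjusted p under 0.05 and 4 were called by DESeq2, and their median of -0.40 became 0.02 when library totals were used. Atp2a2, the calcium pump of the sarcoplasmic reticulum, had 10061, 7380.1 and 6684 CPM in Myh6-ctl and 3354, 1921 and 1589.8 CPM in Myh6-tg hearts (log2 fold change -1.81, adjusted p = 0.0177, and 0.00487 with the block). Of receptor genes of the adrenergic, muscarinic and angiotensin systems 1 rose and 1 fell among 22 tested (0 to 1 and 0 to 4 over the leave-outs). The riser was Ace, the angiotensin converting enzyme, with 104, 84.7 and 129.5 CPM in Myh6-ctl and 446, 479 and 578 CPM in Myh6-tg hearts (log2 fold change 2.24, SE 0.24, adjusted p = 0.00242). The faller was Adra1b (-1.76).

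Fatty acid genes had the most calls among the metabolic lists. Of genes of uptake, storage and oxidation 0 rose and 16 fell among 34 tested (0 to 1 rose and 1 to 19 fell over the leave-outs), with a median of -1.40, and 13 fell with library totals. They included genes of activation, of transport into mitochondria and of the oxidation cycle itself. Acsl1, which activates long-chain fatty acids, had 661, 484 and 477 CPM in Myh6-ctl and 175, 150.3 and 126 CPM in Myh6-tg hearts (log2 fold change -1.85, SE 0.23, adjusted p = 0.00423). Cpt1b and Cpt2, the carnitine transferases of the outer and inner membrane, had log2 fold changes of -1.15 (SE 0.19, adjusted p = 0.00887) and -2.03 (SE 0.23, adjusted p = 0.00306). Hadha, a subunit of the trifunctional protein of the oxidation cycle, had 965, 700.1 and 772 CPM in Myh6-ctl and 301, 285 and 242 CPM in Myh6-tg hearts (log2 fold change -1.56, SE 0.22, adjusted p = 0.00577). Hadhb, its partner subunit, had 1605, 1619.8 and 973 CPM in Myh6-ctl and 416, 416 and 325 CPM in Myh6-tg hearts (log2 fold change -1.86, SE 0.28, adjusted p = 0.00682). Dgat2 (chromosome 7, bases 99153658 to 99182719), which makes triglyceride for storage, had 256, 288 and 244 CPM in Myh6-ctl and 42.7, 36.1 and 29.6 CPM in Myh6-tg hearts (log2 fold change -2.86, SE 0.21, adjusted p = 0.00102). In these 6 genes every Myh6-tg heart was under every control. Cd36, the fatty acid transporter, was not called and its groups overlapped, with 2190.4, 1629.5 and 1388 CPM in Myh6-ctl and 1503, 2339 and 1987 CPM in Myh6-tg hearts. Of genes of ketone bodies and branched-chain amino acids 0 rose and 3 fell among 18 tested (0 to 1 rose and 0 to 15 fell over the leave-outs, 12 with the block), with a median of -1.49. Oxct1, the first enzyme of ketone use, had 1140.0, 679.7 and 734 CPM in Myh6-ctl and 309, 223 and 177 CPM in Myh6-tg hearts (log2 fold change -1.85, SE 0.31, adjusted p = 0.00945). Acat1 and Mccc1 fell by log2 fold changes of -2.05 and -1.76.

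Nearly all genes of the TCA cycle and of the respiratory chain had a log2 fold change below 0. Called were 8% of pyruvate and TCA genes, 5.41% of complex I and 5.13% of complexes III to V, beside 3.97% of all genes. The share was 7.69% for mitochondrially encoded genes. Of pyruvate and TCA genes 0 rose and 2 fell among 25 tested (0 to 18 over the leave-outs, 10 with the block), with all 25 log2 fold changes below 0 and a median of -1.19. Of nuclear complex I genes 0 rose and 2 fell among 37 tested (0 to 14 over the leave-outs, 14 with the block), with all 37 below 0 and a median of -1.12. Of genes of complexes III to V 0 rose and 2 fell among 39 tested (0 to 7 over the leave-outs, 10 with the block), with 38 of 39 below 0 and a median of -1.10. At the looser threshold of an adjusted p under 0.05 with the same fold, by which 7.45% of all genes were lower, 16, 22 and 20 genes of these lists were lower. Suclg2, a subunit of succinyl-CoA ligase, fell by a log2 fold change of -1.74 (SE 0.24, adjusted p = 0.00563) and Fh1, the fumarase, by -1.31 (SE 0.22, adjusted p = 0.00917). Cs, the citrate synthase, had 1233, 1111 and 807 CPM in Myh6-ctl and 693, 362 and 324 CPM in Myh6-tg hearts and was not called (adjusted p = 0.0491). Cox7a1, a muscle form of a cytochrome oxidase subunit, had 58.9, 83.0 and 40.9 CPM in Myh6-ctl and 7.08, 8.14 and 6.47 CPM in Myh6-tg hearts (log2 fold change -3.08, SE 0.29, adjusted p = 0.00184). Cox8b, another such form, had 33.3, 56.5 and 26.8 CPM in Myh6-ctl and 7.61, 9.39 and 7.12 CPM in Myh6-tg hearts (log2 fold change -2.27, SE 0.30, adjusted p = 0.00496). The groups did not overlap in either gene. Among the 13 mitochondrially encoded genes 0 rose and 1 fell among 13 tested (0 to 1 over the leave-outs, 5 with the block), with all 13 below 0 and a median of -1.35. mt-Nd3, a complex I subunit, had 941, 1030.1 and 708 CPM in Myh6-ctl and 208, 304 and 217 CPM in Myh6-tg hearts (log2 fold change -1.88, SE 0.26, adjusted p = 0.00522). With library totals the medians of these 4 lists were -0.81, -0.72, -0.69 and -0.94, still below 0.

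**Figure D3:**
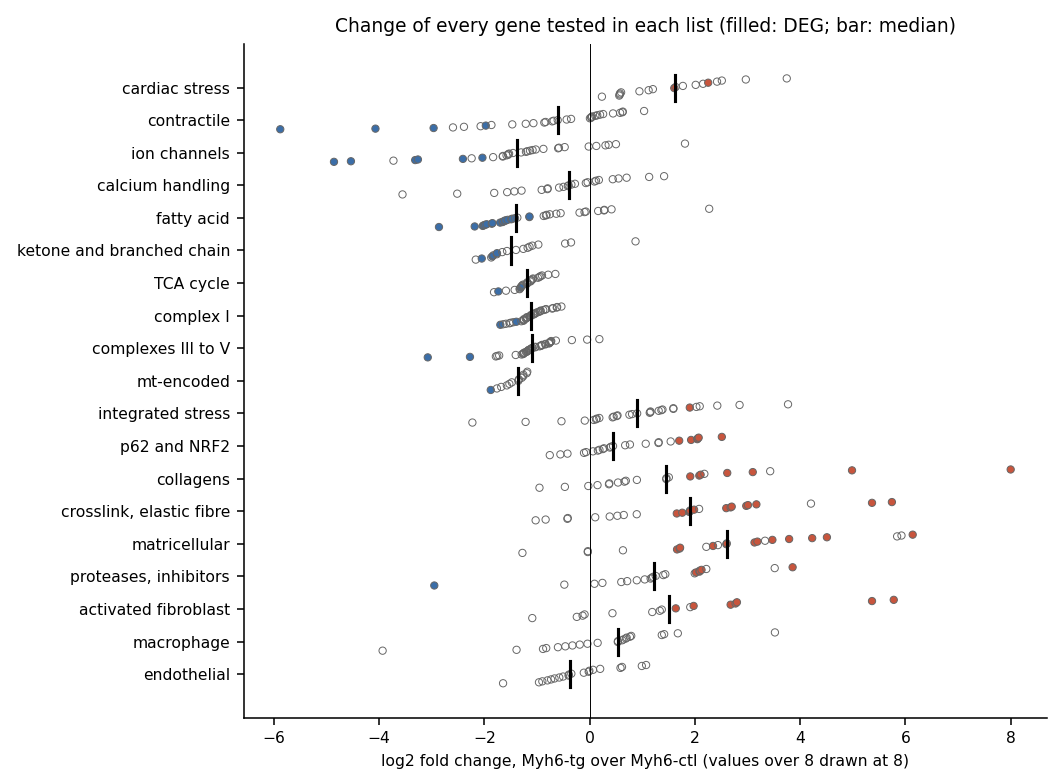
Log2 fold change of every gene tested in 19 lists, Myh6-tg over Myh6-ctl, each circle a gene, filled where it was a DEG, and each bar the median of the list. Matrix lists lie mostly to the right of 0 and fatty acid, TCA and respiratory chain lists mostly to the left. The TCA and respiratory chain lists form a narrow band with few filled circles, while the fatty acid list has 16 filled. Col11a1, with all controls at 0, is drawn at 8.

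Some regulators and carriers of mitochondria fell as well. Called were 10% of the regulators, 10% of the carriers and 5.13% of mitochondrial ribosomal protein genes, beside 3.97% of all genes. The share was 4.55% for heat-shock genes and 11.1% for genes of creatine handling. Of regulators of mitochondrial and metabolic gene expression 0 rose and 2 fell among 20 tested (0 to 7 over the leave-outs). Ppargc1a, the PGC-1 alpha coactivator, had 68.7, 100.4 and 149 CPM in Myh6-ctl and 27.3, 18.2 and 15.2 CPM in Myh6-tg hearts (log2 fold change -2.39, SE 0.34, adjusted p = 0.00588). Perm1, a muscle regulator of the same pathway, had 305, 171 and 202 CPM in Myh6-ctl and 47.9, 35.9 and 30.4 CPM in Myh6-tg hearts (log2 fold change -2.57, SE 0.29, adjusted p = 0.00311). All Myh6-tg hearts were below all controls in both. Of carriers of the inner membrane 0 rose and 4 fell among 40 tested (1 to 8 over the leave-outs, 7 with the block). Slc25a34, of unknown substrate, had 102, 80.7 and 105 CPM in Myh6-ctl and 15.1, 16.8 and 16.7 CPM in Myh6-tg hearts (log2 fold change -2.57, SE 0.18, adjusted p = 0.00102). Of mitochondrial ribosomal protein genes 0 rose and 4 fell among 78 tested (0 to 17 over the leave-outs, 11 with the block), with a median of -0.68. Mrpl18 fell by a log2 fold change of -1.54 (SE 0.18, adjusted p = 0.0037). Hspd1, the mitochondrial chaperonin, had 385, 338 and 326 CPM in Myh6-ctl and 109.7, 126 and 109 CPM in Myh6-tg hearts (log2 fold change -1.605, SE 0.18, adjusted p = 0.0032) and was the 1 DEG among 22 heat-shock genes (0 to 1 rose and 0 to 1 fell over the leave-outs, 2 rose and 2 fell with the block). Ckmt2, the mitochondrial creatine kinase of muscle, had 2088, 1704 and 1153 CPM in Myh6-ctl and 436, 402 and 288 CPM in Myh6-tg hearts (log2 fold change -2.14, SE 0.31, adjusted p = 0.00586), the 1 DEG among 9 genes of creatine handling (0 to 3 over the leave-outs, 3 with the block).

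Glucose genes went both ways. Of genes of uptake, glycolysis and lactate 2 rose and 1 fell among 29 tested (0 to 3 and 0 to 9 over the leave-outs, 2 and 5 with the block), with a median of -0.11 that was 0.30 with library totals. Slc2a1, the basal glucose transporter, had 15, 24.9 and 16.8 CPM in Myh6-ctl and 55.0, 67.3 and 55.3 CPM in Myh6-tg hearts (log2 fold change 1.64, SE 0.23, adjusted p = 0.00561). Slc16a3, a lactate exporter, had 3.06, 4.77 and 6.05 CPM in Myh6-ctl and 17.4, 21.8 and 16.3 CPM in Myh6-tg hearts (log2 fold change 2.00, SE 0.29, adjusted p = 0.00596). Hk2, the insulin-responsive hexokinase of muscle, had 174, 156 and 157 CPM in Myh6-ctl and 75.7, 67.0 and 55.7 CPM in Myh6-tg hearts (log2 fold change -1.30, SE 0.18, adjusted p = 0.00563). The insulin-responsive transporter Slc2a4 had 307, 264 and 216 CPM in Myh6-ctl and 192, 32.3 and 25.6 CPM in Myh6-tg hearts, with Myh6-tg replicate 1 near the controls and the others far under them. It was called when that heart was left out (log2 fold change -3.19, adjusted p = 0.000538).

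Stress responses of the cytosol and of mitochondria were measured as lists of target genes. Of autophagy receptor and NRF2 target genes 5 rose and 0 fell among 25 tested (0 to 7 over the leave-outs, 8 with the block), with a median of 0.44. All 5 risers were NRF2 targets, among them Pgd of the pentose phosphate path, which was outside the rule for named genes. Gclc, the catalytic subunit of the rate-limiting enzyme of glutathione synthesis, had 18.6, 17.3 and 21.6 CPM in Myh6-ctl and 67.3, 136 and 125 CPM in Myh6-tg hearts (log2 fold change 2.51, SE 0.29, adjusted p = 0.00325). Gclm, its modifier subunit, had 37.5, 59.5 and 44.1 CPM in Myh6-ctl and 194, 202 and 187 CPM in Myh6-tg hearts (log2 fold change 2.04, SE 0.22, adjusted p = 0.00247). Srxn1, the sulfiredoxin whose promoter is shown above, had 42.5, 63.8 and 55.5 CPM in Myh6-ctl and 254, 211 and 150 CPM in Myh6-tg hearts (log2 fold change 1.93, SE 0.26, adjusted p = 0.00504). Taldo1, of the same path as Pgd, rose by a log2 fold change of 2.07 (SE 0.28, adjusted p = 0.00516). Sqstm1, which encodes p62, had 464, 979 and 629 CPM in Myh6-ctl and 1846, 2089 and 2091 CPM in Myh6-tg hearts, with no overlap between groups. It was not called without the block (log2 fold change 1.54, adjusted p = 0.0165, and 0.00872 with the block). Of integrated stress response genes 1 rose and 0 fell among 29 tested (0 to 8 rose and 0 to 1 fell over the leave-outs, 5 with the block), with a median of 0.90 and 25 of 29 above 0. Slc7a5, an amino acid transporter, had 5.92, 9.11 and 8.97 CPM in Myh6-ctl and 18, 34.5 and 37.3 CPM in Myh6-tg hearts (log2 fold change 1.90, SE 0.32, adjusted p = 0.00949). Atf4, the transcription factor of this response, had 98.2, 124 and 94.4 CPM in Myh6-ctl and 176, 284 and 245 CPM in Myh6-tg hearts (log2 fold change 1.15, adjusted p = 0.0161). Of unfolded protein response genes 0 rose and 0 fell among 20 tested (0 to 1 and 0 over the leave-outs). Among them 3 had an unadjusted p under 0.05 and 0 were called by DESeq2, with a median of -0.24, which was 0.18 with library totals. Of lysosome genes 2 rose and 0 fell among 24 tested (0 to 3 over the leave-outs). These were the cathepsins Ctsl and Ctsk, with log2 fold changes of 1.58 (SE 0.22, adjusted p = 0.00561) and 2.10 (SE 0.30, adjusted p = 0.00575). Of proteasome genes 3 rose and 1 fell among 37 tested (0 to 3 and 0 to 3 over the leave-outs). The risers Psmd8, Psmc4 and Psmd11 are parts of the regulatory particle (log2 fold changes 1.68, 1.45 and 1.32). The faller Psmb8 is a subunit of the immunoproteasome (-1.08, adjusted p = 0.00869, and 0.0137 with the block).

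Over the 5 lists of immune cells and inflammation described here 1 gene rose and 4 fell of 90 tested (5.56%), beside 3.97% of all genes. The complement, B cell and neutrophil lists, left out of this share, had 0 called among 12, 8 and 6 tested. Of macrophage and monocyte markers 0 rose and 0 fell among 22 tested (0 to 1 and 0 to 2 over the leave-outs). Their sums overlapped, at 1165 to 1892 CPM in Myh6-ctl and 1390.1 to 3129.9 CPM in Myh6-tg hearts, the highest being replicate 1, while 8 had an unadjusted p under 0.05 and 4 were called by DESeq2. Of chemokine and cytokine genes 0 rose and 3 fell among 25 tested (0 to 1 rose and 0 to 4 fell over the leave-outs, 1 rose and 4 fell with the block). Ccl2, which attracts monocytes, had 7.99, 9.70 and 7.16 CPM in Myh6-ctl and 1.64, 1.91 and 2.58 CPM in Myh6-tg hearts (log2 fold change -2.02, SE 0.29, adjusted p = 0.00582). Cxcl9, an interferon-induced chemokine, had 15.6, 9.29 and 5.25 CPM in Myh6-ctl and 0.907, 1.54 and 0.789 CPM in Myh6-tg hearts (log2 fold change -3.22, SE 0.48, adjusted p = 0.00681). Il15 fell by a log2 fold change of -2.09. In all 3 the groups were apart. Of interferon-stimulated genes 0 rose and 1 fell among 20 tested (0 to 2 over the leave-outs), with 19 of 20 log2 fold changes below 0 and a median of -0.87. Of antigen presentation genes 0 rose and 0 fell among 12 tested (0 and 0 to 1 over the leave-outs, 0 and 1 with the block). There were 8 at an unadjusted p under 0.05, 5 called by DESeq2, all 12 below 0 and a median of -0.99. Of T and NK cell markers 1 rose and 0 fell among 11 tested (0 to 1 over the leave-outs). The riser was Cxcr6, a chemokine receptor, with 0.376, 1.51 and 1.598 CPM in Myh6-ctl and 23.2, 22.4 and 12.9 CPM in Myh6-tg hearts (log2 fold change 4.06, SE 0.54, adjusted p = 0.00487). The defining marker Cd3e was at most 0.493 CPM in any heart.

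Markers of other cell types of the heart were called in 0% (endothelial), 8.33% (smooth muscle and pericyte) and 0% (erythroid), beside 3.97% of all genes. Of endothelial markers 0 rose and 0 fell among 20 tested (0 and 0 over the leave-outs), while 8 had an unadjusted p under 0.05 and 2 were called by DESeq2. Their median of -0.37 was 0.02 with library totals, and their sums were 2625 to 3467 CPM in Myh6-ctl and 2321 to 2789 CPM in Myh6-tg hearts. Of smooth muscle and pericyte markers 0 rose and 1 fell among 12 tested (0 to 1 rose and 0 to 1 fell over the leave-outs), the faller being Smtn, the smoothelin gene, with a log2 fold change of -1.20 (SE 0.17, adjusted p = 0.00561). Of erythroid genes 0 rose and 0 fell among 7 tested (0 and 0 over the leave-outs, 0 and 3 with the block), with 4 at an unadjusted p under 0.05, 4 called by DESeq2 and all 7 below 0. Their summed level was 8474, 5433 and 8068 CPM in Myh6-ctl and 3340.1, 1952 and 3597 CPM in Myh6-tg hearts, so that RNA of red cells moved with the groups. Its part in the results was not tested. Of cell cycle genes 0 rose and 3 fell among 26 tested (0 to 2 rose and 0 to 3 fell over the leave-outs). These were Ccnd1 and Ccnd2, the D-type cyclins, and Mcm2, of the replicative helicase (log2 fold changes -1.66, -1.83 and -1.49, Mcm2 with an adjusted p of 0.0133 with the block). Mki67, the marker of cycling cells, had 6.11, 3.02 and 9.92 CPM in Myh6-ctl and 3.36, 7.10 and 5.01 CPM in Myh6-tg hearts. Of immediate early genes 1 rose and 0 fell among 17 tested (0 to 1 over the leave-outs), which was Btg2 (1.61). Of nuclear lamina and envelope genes 1 rose and 0 fell among 14 tested (0 to 2 over the leave-outs). It was Lmna, the lamin A/C gene, with 99.9, 162 and 148 CPM in Myh6-ctl and 359, 389 and 369 CPM in Myh6-tg hearts (log2 fold change 1.44, SE 0.23, adjusted p = 0.00795). No gene was called by edgeR among those listed for p53 targets, the muscle ubiquitin ligases, complement, the clock, core cardiac transcription factors, the Notch pathway, splicing and mitochondrial quality control (0 of 118 tested genes). Of those 39 had an unadjusted p under 0.05, beside 5210 of all 15298 genes tested. DESeq2 called 7 of the 118, and with the block edgeR called 3 higher and 2 lower. Over the leave-outs at most 4 genes of any 1 of these lists were called.

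Several cardiomyocyte genes set replicate 1 of the Myh6-tg hearts off from the other Myh6-tg hearts, and were picked after their values were seen. Tnnt2, cardiac troponin T, had 4080.2, 4961 and 3317 CPM in Myh6-ctl and 10023, 3718 and 3073 CPM in Myh6-tg hearts, so that replicate 1 was the highest of all hearts and replicates 2 and 3 lay among or just under the controls. Ryr2, the calcium release channel, had 588, 369 and 502 CPM in Myh6-ctl and 855, 183 and 164 CPM in Myh6-tg hearts. Pln, which restrains the calcium pump, had 6509, 5967 and 4633 CPM in Myh6-ctl and 2092, 497 and 399.6 CPM in Myh6-tg hearts (adjusted p = 0.0341, and 0.00862 with the block). Gpnmb, which is made by activated macrophages, had 4.30, 11.6 and 9.45 CPM in Myh6-ctl and 195, 44.2 and 51.7 CPM in Myh6-tg hearts. Spp1, also made by them, had 3.57, 5.33 and 7.77 CPM in Myh6-ctl and 135, 15.9 and 17.4 CPM in Myh6-tg hearts. Both were highest in replicate 1 as well. Without this heart 8 calcium cycling genes, 16 contractile genes, 20 channel genes and 18 TCA genes were lower, where 0, 4, 6 and 2 had been with it, and over all genes 972 were lower in place of 314. Fatty acid genes went from 16 to 19 and crosslinking and elastic fibre genes from 12 to 15 higher. This heart was also the male one of its group, and with the Y-linked counts as a covariate, which sets replicate 1 of both groups apart, 1321 genes were called.

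**Figure D4:**
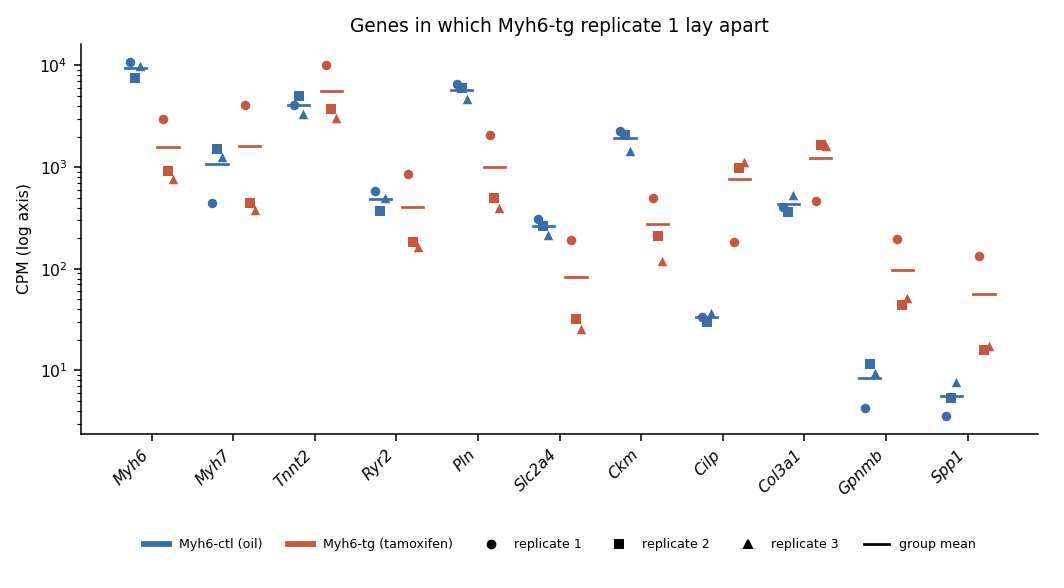
Levels of 11 genes in each of the 6 hearts, in CPM on a log axis, with circles, squares and triangles for replicates 1, 2 and 3 and bars for group means. In Myh6, Myh7, Tnnt2, Ryr2, Pln, Slc2a4, Ckm, Gpnmb and Spp1 the Myh6-tg circle lies above the square and triangle, and in Cilp and Col3a1 below them. The genes were chosen for this pattern.

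The change in Myh6-tg hearts was set against that in EIIa-tg hearts to see where it differed. The models have no controls in common, and age, Cre line, tamoxifen and duration differ together between them. By the contrast of the 2 changes over 12 hearts, 99 of 15929 genes (0.622%) differed, the change in Myh6-tg hearts being higher in 45 and lower in 54. At an adjusted p under 0.05 it was 520 (3.26%), 3092 had an unadjusted p under 0.05, and 34 were called with the replicate block. Of the 608 DEGs 89 differed in this way. The contrast holds the same Myh6 values that picked the DEGs, so this overlap is no separate support. The change of Nox4 in EIIa-tg hearts was 0.48 on the log2 scale, and the difference was 4.19, SE 0.34, adjusted p = 0.000327. Lox was higher by a smaller step in EIIa-tg hearts, 1.91 on the log2 scale (difference 3.82, SE 0.41, adjusted p = 0.0015). Of further matrix genes Ltbp2, Loxl3, Col12a1, Col5a2, Col4a2, Cthrc1 and Thbs2 differed, with changes of 0.93, 0.30, 0.74, 0.63, -0.57, 1.5 and 0.73 in EIIa-tg hearts. Ddah1, which degrades an inhibitor of nitric oxide synthase, went opposite ways, with log2 fold changes of 1.98 and -1.70 (difference 3.67, SE 0.37, adjusted p = 0.00114). So did Ccl2, at -2.02 and 1.71 (difference -3.73, SE 0.62, adjusted p = 0.00954). Among metabolic and muscle genes Fbp2 (difference -3.81, SE 0.33, adjusted p = 0.000343) and Myh7b (difference -3.65, SE 0.47, adjusted p = 0.00311) fell in Myh6-tg hearts with EIIa-tg changes of -0.12 and -0.42. Cpt1b, Eci1, Cox7a1, Slc25a34, Slc25a42 and Hspd1 differed likewise. Of the 99 genes 27 were called with the replicate block, and of the 27 named genes whose change differed, 11 were. Lox, Nox4, Ltbp2, Col12a1, Ddah1, Fbp2, Eci1 and Slc25a34 were among those 11, while Loxl3, Col5a2, Col4a2, Cthrc1, Thbs2, Ccl2, Myh7b, Cpt1b, Cox7a1, Slc25a42 and Hspd1 were not called with it. For Sqstm1 (difference 0.01, SE 0.37, adjusted p = 0.996) and Srxn1 (difference -0.04, SE 0.36, adjusted p = 0.966) no difference between the models was detected, at errors that leave room for one of about 1 on the log2 scale.

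**Figure D5:**
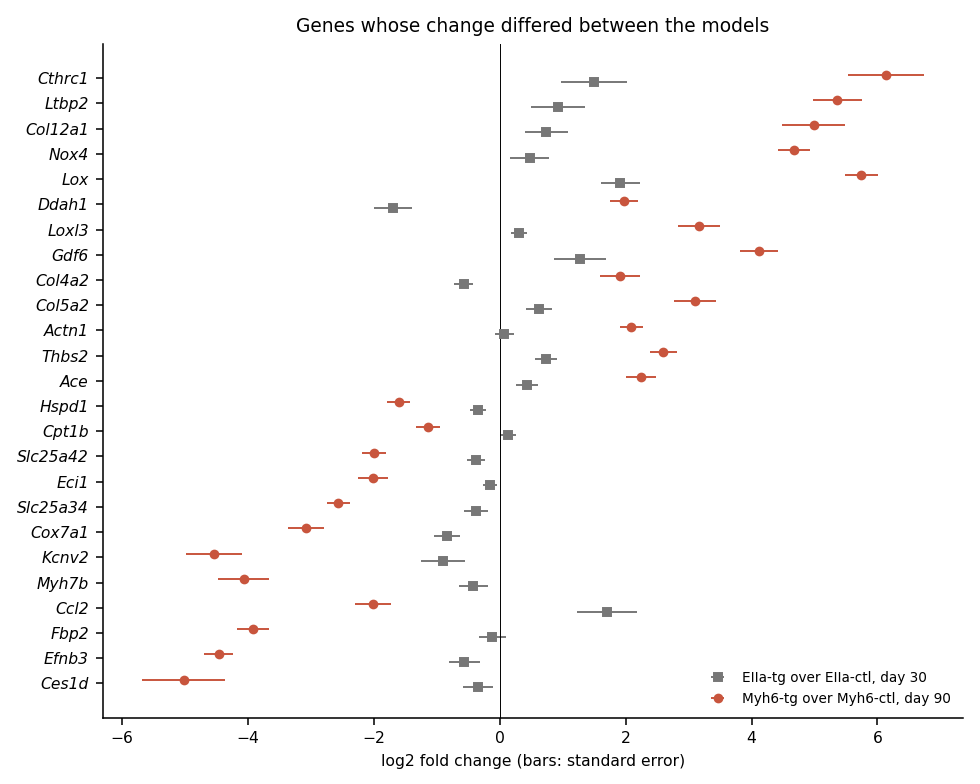
Log2 fold changes with standard errors of 25 named genes whose change differed between the models, circles for Myh6-tg over Myh6-ctl at day 90 and squares for EIIa-tg over EIIa-ctl at day 30. Genes are ordered by the difference. Esr1 and Col11a1 also differed and are left out for their scale. Ddah1, Col4a2 and Ccl2 lie on opposite sides of 0 in the models, each by more than its standard errors.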

How the data were processed

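RNA from 12 mouse hearts was sequenced, and the authors deposited a table of raw read counts per gene and a table of FPKM (fragments scaled to transcript length and depth), which per the labels and the study's methods came from reads aligned to GRCm38 with HISAT2 2.0.4 and assembled with StringTie 2.2.1, the submitters' processing notes also naming mm10, GRCm39 and DESeq2. The counting program and its use of strand are not given in the sources used here, so that reads of overlapping or near-identical genes could not be told apart. The table held 25171 loci, 22036 with an Ensembl identifier and 3135 unannotated loci of the assembly, and positions were taken from GENCODE M21 (GRCm38).

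Counts were filtered with filterByExpr and fitted for the 6 Myh6 hearts with edgeR 4.0.16 (quasi-likelihood, TMM) in R 4.3.3, with Benjamini-Hochberg adjustment over all genes, and the difference between models was a contrast over 12 hearts. Alternatives used DESeq2 1.42.0 and, on log2 FPKM, limma 3.58.1, along with other factors, filters, covariates and leave-outs. Replicate numbers come from the titles, and the check of pairing is given in the report with the libraries. The fits were tested on simulated data, in which 100 genes were changed by each size given here, all above 5 CPM. No replicate or sex effect was set. In the data 5210 genes had an unadjusted p under 0.05, so recovery there may differ. For the Myh6 comparison edgeR recovered 23% of genes changed by 1.5 on the log2 scale and 67% of those changed by 2, with 2 false calls. DESeq2 recovered 77% and 96%, with 25 false calls. A gene not called by edgeR may thus still have changed. Figures used Python 3.11.15 and matplotlib 3.10.9. Counts of 3 in a library served as the floor for genes at 0, which covers counting error only. p-values measure the spread between these hearts.

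Members and lists were chosen with earlier results of these data known. Genes were named as anchors of the lists, as the up to 4 DEGs of lowest p per list and direction, as the 10 largest rises and 10 largest falls among annotated DEGs of at least 5 CPM whose groups did not overlap, and as the 5 DEGs of highest level per direction and the 5 of lowest p. Some genes that the rule named are not reported here.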

Additional observations from a re-analysis of the deposited data

Results flagged for a closer look

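The change between control and transgenic hearts was compared in the models for each gene named above, and 27 of them differed by edgeR's quasi-likelihood test of the difference itself (Myh6-tg change minus EIIa-tg change on the log2 scale, adjusted p under 0.01 over all genes tested). The groups of the models also differ in age, Cre and tamoxifen, which cannot be told apart. Many of the named genes were picked by their change in the Myh6 hearts, which the difference also holds. The number that differed and their directions were thus set in part by that choice. Matrix genes had the higher change in Myh6-tg hearts, with differences of 3.82 for Lox, 2.86 for Loxl3, 4.43 for Ltbp2, 4.62 for Cthrc1, 1.86 for Thbs2, 4.24 for Col12a1, 2.47 for Col5a2 and 2.48 for Col4a2. The difference of Col11a1, 9.61, rests on a group at 0 counts and is no measure of size. Genes of signalling and of enzymes with a higher change were Nox4 (4.19), Ddah1 (3.67), Gdf6 (2.84) and Ace (1.81), and Actn1, of the cytoskeleton, differed by 2.01. Metabolic genes had the lower change, namely Fbp2 (-3.81), Ces1d (-4.68), Cox7a1 (-2.24), Eci1 (-1.85), Cpt1b (-1.28), Slc25a34 (-2.20), Slc25a42 (-1.62) and Hspd1 (-1.26). So had Myh7b (-3.65), Kcnv2 (-3.63), Efnb3 (-3.90), Ccl2 (-3.73) and Esr1 (-10.23). With the replicate block 11 of the 27 were called, and the differences of those called were between -10.29 for Esr1 and 4.48 for Ltbp2. With the library set of the kidney transcripts as a covariate 5 genes in all differed between the models, against 99 without it.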

How the results depend on the processing

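The count of 608 DEGs moved by over 1.5 times to 2152 with DESeq2 (all 608 among them), 996 with library totals (787 higher and 209 lower), 969 with the replicate block, 1321 with the Y-linked covariate, 1857 with all 12 hearts in one fit, 1021 without both hearts numbered 1, 2005 at an adjusted p under 0.05, and 1257 and 1380 with limma on the FPKM values with a pseudocount of 1 or 0.1 (974 and 1069 higher). It was 26 to 1690 when 1 heart was left out, and 129 with the library set as a covariate, an alternative added after the data were seen. RLE factors, other filters on low counts, bias-adjusted quasi-likelihood, limma without a filter, and leaving out mitochondrial or unannotated genes gave 439 to 873, with 337 higher and 102 lower for limma. The count of 99 genes that differed between the models moved to 621 with DESeq2, 164 without a filter, 34 with the replicate block, 156 with the Y-linked covariate, 520 at an adjusted p under 0.05, 5 with the library set as a covariate, and 11 to 541 when 1 heart was left out, the lowest without EIIa-ctl replicate 1 and the highest without Myh6-tg replicate 1. The cause of these moves was not tested, apart from the fewer samples of each leave-out. Of 119 called genes whose fold change is given, 35 kept their call under every alternative with all 6 hearts, and 1 changed direction, Kap, to 2.55 with the library set as a covariate. Of the genes named but not called, Myh7 changed direction to -0.45 with the block, -0.51 with the Y-linked covariate, -1.40 without Myh6-tg replicate 1, -0.35 with the library set as a covariate and -1.78 without both hearts numbered 1. Over the leave-outs of 1 heart Myh7 ranged from -1.40 to 1.07, Tnnt2 from -0.29 to 0.74 and Ryr2 from -1.498 to 0.095 on the log2 scale. Tnnt2 went to -0.29 without Myh6-tg replicate 1 and to -0.29 without both hearts numbered 1. Ryr2 went to 0.033 with library totals, 0.070 and 0.095 without Myh6-tg replicates 2 and 3 and 0.30 with the library set as a covariate, and Cd36 to -0.057 with that covariate. The block by replicate number changed no call of a gene whose fold change is given, other than Myh6, Myl2, Atp2a2, Sqstm1, Psmb8, Mcm2 and Pln. At these depths 3 counts in a heart set the lowest level that could be told from 0.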

Other observations

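Genes outside the lists, chosen after their values were seen, also moved with the groups. Among genes of focal adhesions and the actin cytoskeleton, Itga5, the fibronectin receptor subunit, had 58.6, 68.2 and 70.6 CPM in Myh6-ctl and 341, 416 and 392 CPM in Myh6-tg hearts (log2 fold change 2.54, SE 0.19, adjusted p = 0.00111). Actn1, the alpha-actinin of non-muscle cells, had 30.7, 26.5 and 36.9 CPM in Myh6-ctl and 135, 132 and 134 CPM in Myh6-tg hearts (log2 fold change 2.09, SE 0.18, adjusted p = 0.00157), and Zyx, the zyxin gene, rose by a log2 fold change of 1.72. Fosl1, a subunit of AP-1, had 1.76, 1.13 and 1.85 CPM in Myh6-ctl and 7.30, 10.1 and 9.60 CPM in Myh6-tg hearts (log2 fold change 2.50, SE 0.30, adjusted p = 0.0038), and Sphk1 had 2.19, 3.99 and 3.49 CPM in Myh6-ctl and 47.4, 63.6 and 55.6 CPM in Myh6-tg hearts (log2 fold change 4.11, SE 0.28, adjusted p = 0.00102). In all 5 genes the Myh6-tg hearts were above all controls, but no DEG had overlapping groups. Of secreted factors Edn1, the endothelin precursor, rose by a log2 fold change of 1.98 (SE 0.24, adjusted p = 0.0038) and Hbegf, a ligand of the EGF receptor, by 2.62 (SE 0.28, adjusted p = 0.00251). Lcn2 and Serpina3n, genes of the acute phase, had log2 fold changes of 3.53 and 3.85.

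Among mitochondrial genes outside the lists, Ppif, the cyclophilin of the permeability transition pore, had 186, 269 and 146 CPM in Myh6-ctl and 37.9, 36.7 and 26.4 CPM in Myh6-tg hearts (log2 fold change -2.57, SE 0.28, adjusted p = 0.00275), and Sod2, the superoxide dismutase of the matrix, had 509.6, 510.1 and 318 CPM in Myh6-ctl and 176, 140.3 and 109 CPM in Myh6-tg hearts (log2 fold change -1.66, SE 0.28, adjusted p = 0.00949). Crat, which frees carnitine from acetylcarnitine, and Lrpprc, which stabilises mitochondrial mRNA, fell by log2 fold changes of -1.77 and -1.70. Fndc5, the precursor of irisin, had 332, 315 and 196 CPM in Myh6-ctl and 27.9, 17.2 and 12.6 CPM in Myh6-tg hearts (log2 fold change -3.87, SE 0.37, adjusted p = 0.00205), and Aplnr, the apelin receptor, had 71.1, 16.5 and 17.9 CPM in Myh6-ctl and 3.41, 3.08 and 2.68 CPM in Myh6-tg hearts (log2 fold change -3.52, SE 0.60, adjusted p = 0.0098). All controls were above all Myh6-tg hearts in these 6 genes, which again holds for every DEG that fell.

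Of the 608 DEGs 33 were unannotated loci, 12 of them higher in Myh6-tg hearts. Of 25 loci with at least 0.5 CPM in every Myh6-tg heart and at least 5 times less elsewhere 3 were unannotated, and 1 of these had 112, 66 and 80 counts in the Myh6-tg hearts and 0 in each of the other 9.

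Among 8 atrial markers 1 gene rose and 1 fell, and among 8 ventricular markers 2 fell (0 to 5 over the leave-outs, 4 with the block). By edgeR 0 genes were called among 44 markers of B cells, neutrophils, adipocytes, mesothelium, neural cells and skeletal muscle, while 9 had an unadjusted p under 0.05 and 5 were called by DESeq2. With the block 1 of them was called, and over the leave-outs at most 1 in any list.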
